A study of Mus musculus with 12 samples.

Results

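Haematopoietic stem cells (HSC) were compared with multipotent progenitors (MPP) of the same wild-type mice. The comparison took the arrays of 2 groups, HSC and MPP of mice 3, 12 and 64, and set each HSC array against the MPP array of its own mouse, so that 6 of the 12 arrays of the study gave its values, 3 on each side. The other 6 arrays entered the fit through the estimate of the spread. All cells came from bone marrow of untreated animals at steady state and were sorted by flow cytometry within the LSK compartment, which lacks lineage markers and carries Sca-1 and Kit. HSC were the CD48-CD150+ cells and MPP the CD48+CD150- cells. The wild-type mice (WT) were Nfat5 +/+ Vav-Cre, and the knockout mice (KO), from which the other 6 arrays came, were Nfat5 fl/fl Vav-Cre, so that every animal carried the Cre. Vav-Cre acts throughout the blood system, and both populations of a KO mouse therefore stem from cells in which the gene was deleted. No source used here gives the ages of the mice. Each sample was amplified from 300 pg of total RNA, and the number of arrays sets a limit to precision.

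Stem cells sit at the top of blood formation and divide rarely in the adult marrow, while multipotent progenitors divide often and supply the lineages. The CD48+ progenitors of the LSK compartment include cells that have begun to read lymphoid or myeloid genes without having left the multipotent state. Stem cells are known for receptors that tie them to the niche, for the transcription factors that keep them undivided and unspecified, and for a closeness to the platelet lineage.

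HSC differed from MPP in lymphoid genes, in some genes of cell division and in single genes such as Cd55, Abcg3 and Plxdc2 that were higher in stem cells. At an adjusted p under 0.05 by limma, 180 of the 14620 genes tested passed, a background of 1.23%. Of these, 74 were higher in HSC (0.506%) and 106 were lower (0.725%). The sizes of the differences that passed ran from 0.92 to 7.90 on the log2 scale with a median of 1.70, and those above 2 belonged to 20 genes higher and 44 genes lower in HSC. All 180 genes differed in the same direction in all 3 mice, and the 3 HSC and 3 MPP values did not overlap for 179 of them. Of all genes tested, 3112 were higher and 2559 lower in HSC in all 3 mice. Over all genes tested, the values did not overlap for 3115 genes or 21.3%, 1608 of them higher (11%) and 1507 lower (10.3%). The median difference of all genes was 0.03 and the median standard error 0.21. Without the pairing by mouse 302 genes passed (2.07%), 109 higher (0.746%) and 193 lower (1.32%), and they included 154 of the 180. The 180 rest on all 12 arrays for the spread: with only the 6 WT arrays 74 genes passed, 52 of them among the 180.

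**Figure D1:**
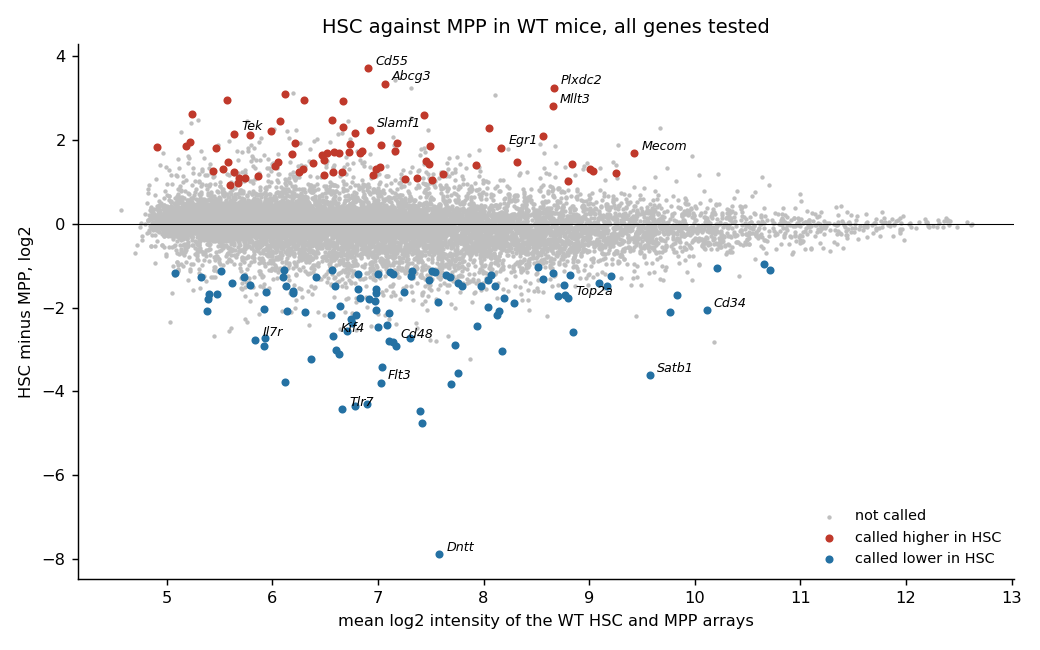
Difference between HSC and MPP in WT mice (vertical axis, log2, HSC minus MPP) against the mean log2 intensity of the 6 arrays (horizontal axis), 1 point a gene, for the 14620 genes tested. The 74 genes called higher are red and the 106 called lower blue, and Dntt stands farthest from 0 at -7.90.

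The spread of the stem cell arrays was somewhat wider. The median SD between the 3 mice was 0.258 in HSC and 0.218 in MPP over all genes, and 0.345 and 0.260 over the genes that passed. Among the 74 genes higher in HSC the array of mouse 12 was the highest of the 3 HSC arrays for 44, that of mouse 3 for 21 and that of mouse 64 for 9, while the median difference was 1.73 in mouse 12, 1.53 in mouse 3 and 1.54 in mouse 64. Among the 106 genes lower in HSC the median difference was -1.72, -1.73 and -1.72 in mice 3, 12 and 64. For 33 of the 180 genes (15 higher and 18 lower) the mean of the lower group lay under 4.96, the mean that a gene needed over all arrays to be tested, so that their differences can be larger than measured. Array medians of the 12 arrays lay between 5.85 and 5.95. With the arrays of 1 WT mouse left out, 8 genes passed without mouse 3, 24 without mouse 12 and 2 without mouse 64, and 24 genes passed in at least 1 of these fits, among them Dntt, Satb1, Cd53, Tlr7, Abcg3, Gng11 and Top2a.

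**Figure D2:**
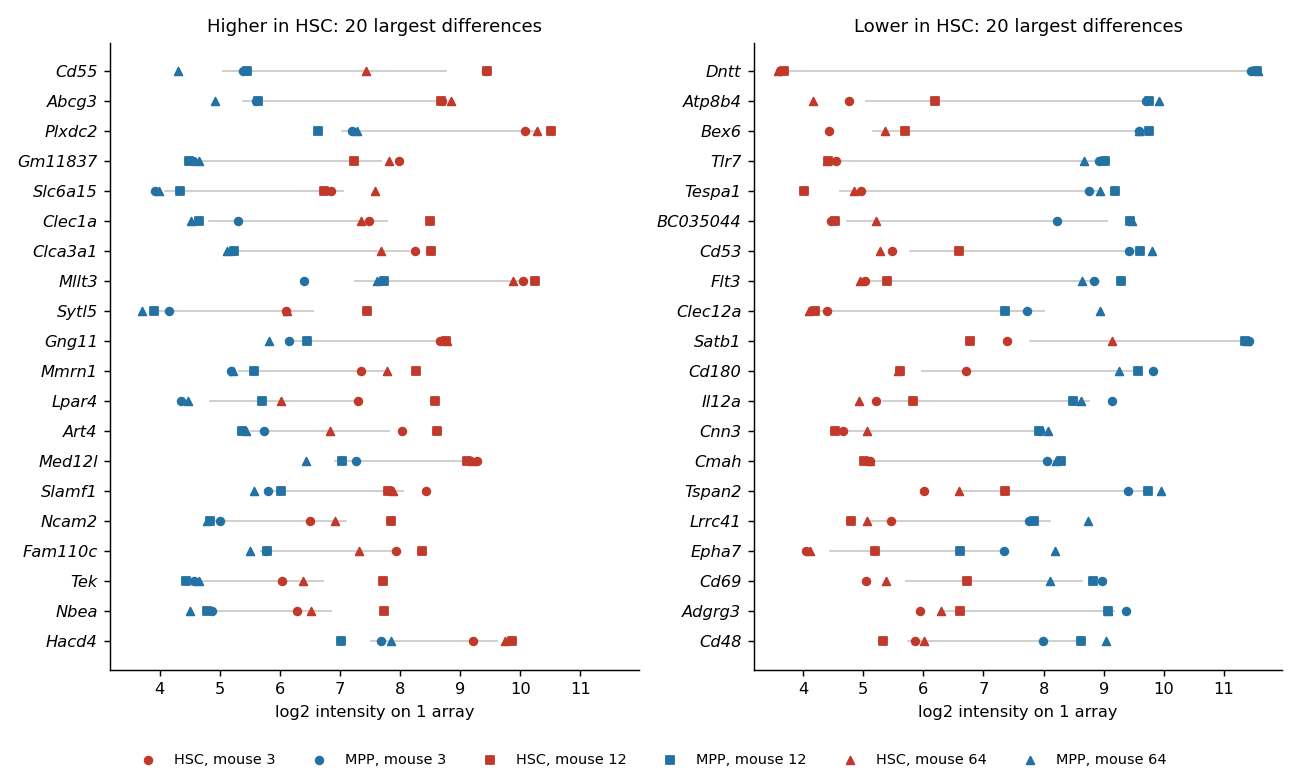
Log2 intensity on each of the 6 arrays for the 20 genes with the largest rise (left) and the 20 with the largest fall (right) in HSC, with HSC arrays in red, MPP arrays in blue and a marker shape for each mouse. A grey line joins the group means, and the red and blue values of each gene shown lie apart.

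The sorted populations carried the transcripts of their gates. Slamf1, which encodes CD150, read 8.44, 7.80 and 7.88 in HSC and 5.81, 6.02 and 5.58 in MPP of mice 3, 12 and 64. Cd48 read 5.86, 5.34 and 6.02 in HSC and 8.0, 8.63 and 9.04 in MPP. Both sets of values lay apart in the direction of the sort, which used these proteins, so they check the labels and are no result of the comparison. Kit, which encodes the receptor for stem cell factor and was required in both gates, read 10.66, 10.56 and 10.11 in HSC and 10.37, 10.44 and 9.80 in MPP, and its difference of 0.24 (95% interval -0.09 to 0.57, adjusted p = 0.490 by limma) did not pass. Ly6a, which encodes Sca-1, was not analysed here. On these pools of cells, fewer cells that express a gene and less RNA of it per cell cannot be told apart.

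Most mature neutrophil markers read higher in WT HSC, and none passed. Of the 12 markers tested 0 passed by limma, and 7 were higher in HSC in all 3 mice, as were 3112 of all 14620 genes. The median difference of the markers was 1.32, with 1.37, 0.95 and 0.86 in mice 3, 12 and 64, against a median of 0.03 over all genes. The mean level of the list was 7.76, 7.59 and 5.93 in HSC and 6.68, 6.61 and 4.98 in MPP of these mice, so both arrays of mouse 64 were low and the groups overlapped. Values did not overlap for 1 of the 12 (8.33%, against 21.3% of all genes), and the median in KO mice was 0.32. The calprotectin subunit S100a8 read 10.66, 10.28 and 7.51 in HSC and 8.47, 9.51 and 4.77 in MPP. Its difference was 1.90 (SE 0.51, adjusted p = 0.165). The part of these transcripts in the genes described below was not tested. Markers of T and NK cells had a median of -0.03 over 6 genes tested, those of endothelial and stromal cells 0.11 over 7, those of monocytes and macrophages -0.04 over 10 and those of mast cells and basophils -0.06 over 7, with 0 passing in each by limma. Values did not overlap for 3 of the 10 monocyte and macrophage markers, all lower in HSC. Among them the monocyte marker Ccr2 stood at -2.69 (adjusted p = 0.0596 by limma) and passed without the pairing (adjusted p = 0.0271). For 2 of the 7 mast cell and basophil markers the values did not overlap and were higher in HSC. Without the pairing 1 of the 7 passed, higher in HSC. The defining markers Cd3d, Cd3g, Ncr1, Cdh5 and Kdr lay under the level needed for a test. Of 8 dendritic cell markers tested (median -0.25) 2 fell, Flt3 and Ccr9, which are lymphoid priming genes as well.

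Receptors of the stem cell surface were mostly higher in HSC. Of 24 tested, 22 had a difference above 0, 3 rose and 1 fell, and the median was 0.48. Over all 14620 genes tested, 7922 lay above 0 and 6698 below, 0.506% rose and 0.725% fell. These figures are the background for the counts of each list from here on. By limma 0 of the 24 receptors passed without any 1 of the WT mice and 2 with only the WT arrays. Plxdc2, a transmembrane protein of the plexin domain family, read 10.08, 10.51 and 10.28 in HSC and 7.20, 6.64 and 7.29 in MPP. All HSC arrays stood well above all MPP arrays, a rise of 3.25 (SE 0.36, adjusted p = 0.0205 by limma). Clec1a, a C-type lectin receptor, read 7.48, 8.50 and 7.36 against 5.31, 4.66 and 4.52 and rose by 2.95 (SE 0.35, adjusted p = 0.0232). Tek, which encodes TIE2, the angiopoietin receptor that holds stem cells in the niche, read 6.03, 7.72 and 6.39 against 4.58, 4.45 and 4.66. Its HSC value in mouse 12 was the highest by far, and the rise of 2.15 (SE 0.34) was close to the threshold (adjusted p = 0.0472).

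The receptor that fell was Cd34, the sialomucin that adult mouse stem cells lose and progenitors carry. It read 8.69, 8.98 and 9.58 in HSC and 11.28, 10.97 and 11.18 in MPP, with no overlap and a difference of -2.06 (SE 0.25, adjusted p = 0.0231 by limma). Procr, the protein C receptor used to enrich stem cells, read 5.97, 5.78 and 5.37 in HSC and 4.85, 5.77 and 4.91 in MPP. The MPP array of mouse 12 reached the HSC arrays, and the difference of 0.53 (95% interval -0.30 to 1.36, adjusted p = 0.550) did not pass. Abcg2, the dye efflux pump of stem cells, stood at 1.63 (SE 0.32, adjusted p = 0.0813), with HSC values of 10.75, 10.90 and 10.71 all above MPP values of 8.94, 9.23 and 9.29.

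Transcription regulators of stem cells were also mostly higher in HSC by sign. Of 38 tested, 32 lay above 0, 3 rose and 0 fell, and the median was 0.42. By limma 0 rose without any 1 of the WT mice and 1 with only the WT arrays. Mllt3, a reader of histone acylation that maintains stem cells, read 10.05, 10.24 and 9.88 in HSC and 6.40, 7.73 and 7.61 in MPP, a rise of 2.81 (SE 0.46, adjusted p = 0.0481 by limma). Mecom, the zinc finger factor EVI1 required for stem cell maintenance, read 9.96, 10.85 and 10.02 against 8.79, 8.67 and 8.29 and rose by 1.69 (SE 0.23, adjusted p = 0.0304). Both were clear of the MPP values on every HSC array. Egr1, an early growth response factor linked to stem cell dormancy, read 9.24, 9.55 and 8.45 in HSC and 7.57, 7.76 and 6.45 in MPP.

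Over all genes fewer passed with the pairing than without it (180 against 302), but Egr1 went the other way. Mouse 64 was lowest in both populations, the differences within the mice were alike, and the rise of 1.82 (SE 0.15) passed with the pairing (adjusted p = 0.00758 by limma) and not without it (adjusted p = 0.148). Hlf, a leucine zipper factor of stem cells, stood at 0.66 (95% interval 0.20 to 1.13, adjusted p = 0.209), and Hoxb5, whose reporter marks long-term stem cells, at 0.41 (SE 0.24, adjusted p = 0.505). Bmi1, the Polycomb protein known for stem cell self-renewal, went against the list. It read 6.86, 6.87 and 6.33 in HSC and 8.29, 8.11 and 7.15 in MPP of the same mice, a difference of -1.16 that lay just outside the threshold (adjusted p = 0.0508). Without the pairing its adjusted p was 0.550 by limma.

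Among the 20 largest rises were transporters, signalling proteins and genes of less known role. Abcg3, a member of the ABC transporter family related to Abcg2, read 8.70, 8.67 and 8.84 in HSC and 5.60, 5.64 and 4.93 in MPP. The HSC arrays were nearly level, and the rise was 3.35 (SE 0.23, adjusted p = 0.00605 by limma). Slc6a15, a sodium-coupled transporter of neutral amino acids, read 6.85, 6.74 and 7.58 against 3.93, 4.35 and 3.98 and rose by 2.97 (SE 0.24, adjusted p = 0.00758). The MPP values of Slc6a15 lay under 4.96 and may be background. Each was the only gene that passed in its list, of 30 ABC transporters (median 0.06) and 27 amino acid transporters (median 0.10). Without the pairing 2 of the ABC transporters passed, both higher in HSC.

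Gng11, a gamma subunit of heterotrimeric G proteins, read 8.66, 8.76 and 8.78 in HSC and 6.15, 6.45 and 5.82 in MPP and rose by 2.60 (SE 0.21, adjusted p = 0.00758 by limma). Cd55, which encodes the complement regulator DAF, read 9.42, 9.45 and 7.43 in HSC and 5.40, 5.45 and 4.31 in MPP. Mouse 64 was lower than the other mice in both populations, and the rise was 3.72 (SE 0.35, adjusted p = 0.0125). Lpar4, a receptor for lysophosphatidic acid, also varied from mouse to mouse, with 7.29, 8.59 and 6.02 in HSC and 4.36, 5.70 and 4.47 in MPP. Its rise of 2.46 (SE 0.33, adjusted p = 0.0304) did not pass without the pairing (adjusted p = 0.125). The probe set of Cd55 can share signal with its neighbouring copy Cd55b, and that of Clca3a1, a chloride channel regulator at 2.95 (SE 0.19), with Clca3a2.

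The other genes of that group rose by 2.09 to 3.11 with adjusted p from 0.00758 to 0.0464. Gm11837 rose by 3.11, Sytl5, a synaptotagmin-like partner of Rab27, by 2.63, Art4, a mono-ADP-ribosyltransferase of the Dombrock blood group, by 2.31, and Med12l, a relative of the Mediator subunit MED12, by 2.28. Ncam2, a neural cell adhesion molecule, rose by 2.21, Fam110c by 2.18, Nbea, the scaffold neurobeachin, by 2.13, and Hacd4, a dehydratase of very long chain fatty acid synthesis, by 2.09. Nbea read 6.29, 7.74 and 6.52 in HSC and 4.87, 4.79 and 4.51 in MPP, so the HSC array of mouse 12 was the highest, as for Tek.

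Most platelet genes did not pass, though their differences were largely positive. Of 27 megakaryocyte and platelet genes tested, 24 lay above 0 and 1 rose, and the median was 0.35. Mmrn1, the platelet and endothelial granule protein multimerin 1, read 7.35, 8.26 and 7.79 in HSC and 5.18, 5.58 and 5.22 in MPP and rose by 2.47 (SE 0.21, adjusted p = 0.00880 by limma). Pf4, platelet factor 4, read 8.75, 9.12 and 9.27 against 6.93, 7.60 and 7.17. No MPP value reached the HSC values, and the difference of 1.81 (SE 0.33, adjusted p = 0.0657) passed without the pairing (adjusted p = 0.0186). Vwf, von Willebrand factor, which marks platelet-biased stem cells, stood at 1.17 (SE 0.28, adjusted p = 0.127), Cd9 at 1.25 (SE 0.22, adjusted p = 0.0574) and Itga2b, the platelet integrin CD41, at 0.37 (SE 0.20, adjusted p = 0.459). Cd9 passed without the pairing (adjusted p = 0.00652 by limma).

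Of 19 genes of erythroid commitment, 18 lay above 0, with a median of 0.31, and the only member that passed fell. This was Tfrc, the transferrin receptor, which dividing cells of all kinds use to take up iron. It read 8.36, 7.26 and 7.92 in HSC and 9.42, 9.72 and 9.54 in MPP, a difference of -1.71 (SE 0.27, adjusted p = 0.0455 by limma). The erythroid factors Gata1, at 0.20 (SE 0.15), and Klf1, at 0.15 (SE 0.16), did not pass.

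Imprinted growth regulators, a gene class known from the stem cell niche and from growth control, had a median of 0.23 over 21 genes, with 18 above 0 and 2 that rose. Grb10, an adaptor that damps insulin and growth factor receptors, read 6.37, 6.22 and 5.98 in HSC and 4.86, 4.80 and 4.95 in MPP and rose by 1.32 (SE 0.22, adjusted p = 0.0481 by limma). Ppp1r9a, the actin-binding protein neurabin 1, read 9.10, 9.24 and 8.85 against 7.69, 7.51 and 7.53 and rose by 1.49 (SE 0.21, adjusted p = 0.0308). Values of both genes were narrow within each population. Ndn, the growth suppressor necdin, stood at 1.19 (SE 0.23, adjusted p = 0.0782), and Cdkn1c, the cell cycle inhibitor p57, at 0.04 (SE 0.19, adjusted p = 0.948), with 6.38, 6.46 and 6.70 in HSC against 6.77, 6.30 and 6.35 in MPP. Hox cluster genes had a median of 0.21 over 22 tested, 18 of them above 0, and 0 passed by limma. Among TGF-beta and BMP genes (33 tested, median 0.12) 1 rose, the coreceptor betaglycan Tgfbr3, at 1.93 (SE 0.29, adjusted p = 0.0398), with 8.08, 8.23 and 8.13 in HSC and 5.58, 6.32 and 6.74 in MPP.

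Lymphoid priming genes held the largest fall of all, that of Dntt, and 12 calls. Of 32 tested, 12 fell and 0 rose, 26 lay below 0, 17 had values lower on all HSC than on all MPP arrays (10.3% of all genes), and the median was -1.24. In mice 3, 12 and 64 the median was -1.06, -0.97 and -1.24. Without mouse 3, 12 or 64 the count that fell was 1, 2 and 2, and with only the WT arrays 4. Dntt, terminal transferase, adds untemplated nucleotides to rearranging antigen receptor genes. It read 3.62, 3.69 and 3.58 in HSC and 11.46, 11.56 and 11.57 in MPP. Replicates of each population differed by little, and the difference of -7.90 (SE 0.18, adjusted p = 2.7e-05 by limma) came from HSC values that lay under 4.96.

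Flt3, the cytokine receptor that marks lymphoid-primed progenitors, read 5.03, 5.39 and 4.95 in HSC and 8.84, 9.29 and 8.64 in MPP and fell by 3.80 (SE 0.35, adjusted p = 0.0109 by limma). Il7r, the interleukin-7 receptor of lymphoid progenitors, read 4.47, 4.37 and 4.52 against 6.40, 7.48 and 7.80 and fell by 2.77 (SE 0.32, adjusted p = 0.0221). HSC values of Il7r were level, while MPP of mouse 3 stood below the MPP of the other mice. Satb1, a chromatin organiser of early lymphoid cells, read 7.40, 6.77 and 9.13 in HSC and 11.41, 11.35 and 11.38 in MPP. Here the MPP arrays were level and the HSC of mouse 64 was the highest, and the difference was -3.62 (SE 0.41, adjusted p = 0.0218).

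The tetraspanin Cd53 read 5.48, 6.60 and 5.27 in HSC and 9.42, 9.60 and 9.80 in MPP, a difference of -3.82 (SE 0.32, adjusted p = 0.00758 by limma), and Cnn3, an actin-binding calponin, fell by 3.22 (SE 0.32, adjusted p = 0.0139). The next members reach further into lymphoid development. Ebf1, the factor that commits cells to the B lineage, read 5.75, 5.94 and 5.94 in HSC and 7.53, 9.06 and 8.30 in MPP and fell by 2.42 (SE 0.28, adjusted p = 0.0231). Ikzf1, the lymphoid regulator Ikaros, read 7.86, 8.22 and 8.03 against 9.83, 9.29 and 9.36 and fell by 1.46 (SE 0.22, adjusted p = 0.0385). In each of these genes the lowest MPP array was above the highest HSC array. The other members that passed were Ccr9, a chemokine receptor that guides cells to the thymus, at -1.80, the surface glycoprotein Cd52 at -2.18, the adaptor Lat2 at -1.62 and the E protein Tcf4 at -1.10.

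Of 10 B cell markers tested 1 fell, Ebf1, and 9 lay below 0, with a median of -0.77. Mean levels of these markers were 6.20 to 6.36 in HSC and 7.06 to 7.29 in MPP. Cd79a, a chain of the B cell receptor complex, stood at -1.01 (SE 0.24, adjusted p = 0.127 by limma), Pax5, which holds B cell identity, at 0.18 (SE 0.33, adjusted p = 0.850), and the mature B cell marker Ms4a1 lay under the level needed for a test. Their part in the lymphoid falls was not tested.

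Several of the 20 largest falls lay outside the lists. Atp8b4, a subunit of a phospholipid flippase, read 4.77, 6.19 and 4.17 in HSC and 9.70, 9.75 and 9.92 in MPP, and Bex6 read 4.43, 5.69 and 5.37 against 9.58, 9.76 and 9.58. For both the MPP arrays were nearly level and the HSC array of mouse 12 was the highest, and the differences were -4.75 (SE 0.49, adjusted p = 0.0162 by limma) and -4.48 (SE 0.34, adjusted p = 0.00758). Tespa1, a signalling protein of developing T cells, read 4.97, 4.01 and 4.84 in HSC and 8.76, 9.19 and 8.94 in MPP and fell by 4.36 (SE 0.30, adjusted p = 0.00605). Il12a, the p35 subunit of interleukin-12, read 5.21, 5.84 and 4.93 against 9.14, 8.49 and 8.62 and fell by 3.43 (SE 0.27, adjusted p = 0.00758). BC035044 fell by 4.31, Lrrc41, a leucine-rich repeat protein, fell by 3.0, and Adgrg3, an adhesion G protein-coupled receptor of leukocytes, fell by 2.90. Epha7, an ephrin receptor, fell by 2.93 (SE 0.46, adjusted p = 0.0455), with MPP values of 7.34, 6.60 and 8.19 that differed between mice, and did not pass without the pairing (adjusted p = 0.0604).

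Some receptors for cytokines and pathogen products were lower in HSC, in lists whose medians lay near 0. Among the cytokine receptors tested, values did not overlap for 12 lower and 2 higher in HSC (37.8%, against 21.3% of all genes). Of 37 interleukin and cytokine receptors 6 fell and 0 rose, while 18 lay above 0 and 19 below, with a median of -0.02. Beside Flt3 and Il7r these were Il1r1, the interleukin-1 receptor, which read 7.67, 7.97 and 7.02 in HSC and 10.11, 10.27 and 10.03 in MPP and fell by 2.58 (SE 0.21, adjusted p = 0.00758 by limma), and Il10rb, a chain shared by interleukin-10 family and lambda interferon receptors, which read 5.75, 5.59 and 6.50 against 7.45, 7.42 and 8.29 and fell by 1.78 (SE 0.16, adjusted p = 0.00905). Both populations of mouse 64 were highest for Il10rb, and the differences within the mice were nearly equal. Il18r1, the interleukin-18 receptor, fell by 2.07 (SE 0.28, adjusted p = 0.0308), and Il17ra, the interleukin-17 receptor, fell by 1.23 (SE 0.19, adjusted p = 0.0426). The interleukin-6 receptor Il6ra stood at 0.07 (SE 0.16, adjusted p = 0.877).

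Of 20 Toll-like receptors and accessory proteins 2 fell, with a median of -0.01. Tlr7, the endosomal sensor of single-stranded RNA, read 4.54, 4.41 and 4.39 in HSC and 8.92, 9.02 and 8.67 in MPP, and Cd180, a Toll-like receptor homologue of B cells and myeloid cells, read 6.72, 5.62 and 5.58 against 9.82, 9.56 and 9.25. All MPP arrays stood far above the HSC arrays, with differences of -4.43 (SE 0.32, adjusted p = 0.00758 by limma) and -3.57 (SE 0.43, adjusted p = 0.0246). The HSC values of Tlr7 lay under 4.96. Tlr4, the receptor for lipopolysaccharide, stood at -0.02 with a wide error (SE 0.70, adjusted p = 0.993). Among 24 genes of chemokine response and marrow retention, Ccr9 and Ptger2, a receptor for prostaglandin E2, fell, the latter with a difference of -2.04 (SE 0.30, adjusted p = 0.0385). Cxcr4, the receptor that retains cells in the marrow, read 7.81, 7.80 and 7.92 in HSC and 9.50, 9.19 and 8.86 in MPP, with a difference of -1.34 (SE 0.29, adjusted p = 0.105) that passed only without the pairing (adjusted p = 0.0257).

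Several surface receptors of other families were lower in HSC. Of 9 SLAM family receptors and adaptors tested 3 passed, 2 of which are the sort genes Slamf1 and Cd48. The third was Cd244a, the binding partner of CD48, which fell from 7.74, 8.27 and 7.97 in MPP to 5.39, 5.53 and 5.35 in HSC, a difference of -2.57 (SE 0.21, adjusted p = 0.00758 by limma). CD244 was not part of the sort. Of 15 C-type lectin receptors Clec1a rose and 4 fell (0.506% and 0.725% of all genes). Clec12a, an inhibitory receptor of myeloid cells, fell with a difference of -3.78 and the activation antigen Cd69 with -2.92. Clec2i fell with -2.46 and Clec4e, the sensor Mincle, with -1.80. Clec2i has close relatives in its gene cluster, so its probe set may read several. Of 20 tetraspanins Cd53 and Tspan2 fell, Tspan2 with a difference of -3.04 (SE 0.26, adjusted p = 0.00758), and Cd9 and Cd63 stood at 1.25 and 0.94 without passing. Without the pairing both Cd9 and Cd63 passed (adjusted p = 0.00652 and 0.0406 by limma). Itgal, the integrin chain of LFA-1, fell by 1.27 (SE 0.17, adjusted p = 0.0304 by limma), or with an adjusted p of 0.0556 without the pairing. It was the only 1 of 25 integrins that passed, and 17 of the 25 lay above 0. H2-Ob, which limits peptide loading on class II molecules, fell by 2.27 (SE 0.26, adjusted p = 0.0213 by limma). It was the only 1 of 16 class II presentation genes that passed, and their median was -0.17.

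Cmah, the hydroxylase that makes the sialic acid Neu5Gc, read 5.11, 5.01 and 5.11 in HSC and 8.05, 8.28 and 8.21 in MPP, a difference of -3.10 (SE 0.18, adjusted p = 0.00605 by limma). It was the only 1 of 20 sialic acid and sialyltransferase genes that passed, and their median was -0.12.

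Myeloid progenitor genes were lower in HSC on most arrays but few passed. Of 33 tested, 3 fell and 0 rose, 24 lay below 0 and the median was -0.43. By limma 0 passed without any 1 of the WT mice and 5 with only the WT arrays. Nkg7, a granule protein, read 5.90, 5.75 and 6.17 in HSC and 8.52, 8.69 and 8.78 in MPP and fell by 2.72 (SE 0.22, adjusted p = 0.00758 by limma). Cst7, a cysteine protease inhibitor of granules, fell by 2.36 (SE 0.23, adjusted p = 0.0139), and Clec12a read 4.40, 4.20 and 4.09 against 7.73, 7.36 and 8.95. The granule enzyme Mpo, myeloperoxidase, read 8.49, 9.38 and 7.14 in HSC and 10.78, 10.47 and 10.36 in MPP. The HSC arrays of Mpo were spread over more than 2 log2 units, and the difference of -2.20 (SE 0.73, adjusted p = 0.255) did not pass. Elane, neutrophil elastase, stood at -0.84 (SE 0.31, adjusted p = 0.302), and Cebpa, the factor of granulocyte commitment, at -0.43 (SE 0.22, adjusted p = 0.433).

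**Figure D3:**
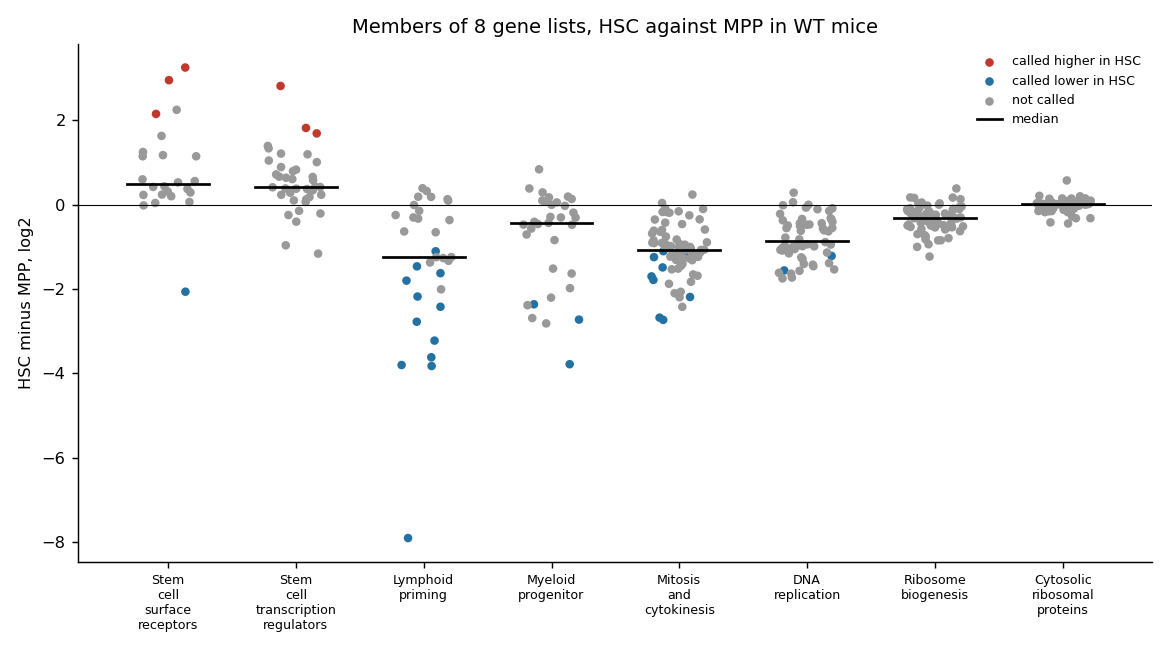
Difference between HSC and MPP in WT mice (vertical axis, log2) for each tested member of 8 gene lists, 1 point a gene, spread sideways at random, with a black bar at the list's median. Members called lower are blue, members called higher red; lymphoid priming has 12 blue points and a median of -1.24, and cytosolic ribosomal proteins lie close to 0.

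Genes of mitosis and cytokinesis were lower in HSC almost without exception in sign. Of 73 tested, 71 lay below 0 and 61 were lower in HSC in all 3 mice, as were 2559 of all 14620 genes. Values were lower on all HSC than on all MPP arrays for 53 of the 73 (10.3% of all genes). The median was -1.07, with -0.89, -1.03 and -1.25 in mice 3, 12 and 64. At the threshold 10 fell and 0 rose, and 17 fell without the pairing. With a repeated quantile normalization or with trended variances 6 passed. The count was 0, 1 and 0 without mouse 3, 12 or 64 and 2 with only the WT arrays. Many genes of this group are switched on late in the cell cycle through a CHR element and CCAAT boxes near their start, which the MuvB and NF-Y complexes bind. Stretches before the start of 4 of the 10 are printed to show these letters in genes that fell.

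The sequences are from RefSeq on GRCm38.p6 and give the 120 bases before a start, 5′ to 3′ on the strand of the gene: chr11:99024190-99024309 (minus strand) for Top2a, chr3:27153879-27153998 (minus strand) for the more upstream start of Ect2, chr5:45669805-45669924 (plus strand) for Ncapg and chr9:70421555-70421674 (minus strand) for Ccnb2. Capitals mark TTTGAA or its reverse complement (CHR) and CCAAT or its reverse complement.
Top2a: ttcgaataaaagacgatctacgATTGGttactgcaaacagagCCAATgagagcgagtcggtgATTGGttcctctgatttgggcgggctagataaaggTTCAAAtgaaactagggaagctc
Ect2: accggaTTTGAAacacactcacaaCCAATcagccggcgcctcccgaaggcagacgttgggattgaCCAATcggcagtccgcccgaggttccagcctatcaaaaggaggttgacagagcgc
Ncapg: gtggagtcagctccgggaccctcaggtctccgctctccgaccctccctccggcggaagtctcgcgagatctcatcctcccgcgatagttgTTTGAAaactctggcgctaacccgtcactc
Ccnb2: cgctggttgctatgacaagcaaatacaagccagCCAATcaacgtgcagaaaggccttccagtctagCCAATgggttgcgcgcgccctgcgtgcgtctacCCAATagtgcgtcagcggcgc
Top2a and Ect2 held both kinds of letters here, Ncapg only the CHR and Ccnb2 only the CCAAT boxes. The 120 bases before the other start of Ect2 held CCAAT without the CHR. So did those of Cdca3, Kif23, Kif4 and Nek2, which are not printed.

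Over the 250 bases before a start and both strands, TTTGAA was present at 7 of 12 starts of the 10 genes that fell (58.3%) and CCAAT at 11 of 12 (91.7%), and both at 6 (50%). Over all 64 starts of tested mitosis genes the shares were 40.6%, 68.8% and 32.8%. Over the 14698 starts of all genes tested they were 11.6%, 34.9% and 4.41%, and over all 32851 starts that RefSeq gave they were 16.0%, 33.9% and 5.55%. A match describes letters and not a bound site. Some genes have several starts, which share bases.

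Top2a, the topoisomerase that untangles chromosomes before division, read 7.15, 8.48 and 8.09 in HSC and 9.59, 9.50 and 9.99 in MPP. HSC arrays of mice 12 and 64 were closer to the MPP arrays than that of mouse 3, and the difference was -1.78 (SE 0.26, adjusted p = 0.0379 by limma). Ect2, the exchange factor that starts the cleavage furrow, read 8.28, 7.74 and 7.75 against 9.41, 9.73 and 9.72 and fell by 1.70 (SE 0.23, adjusted p = 0.0308). Ncapg, a condensin subunit, read 8.58, 8.20 and 8.97 against 9.59, 9.84 and 10.04 and fell by 1.24 (SE 0.19, adjusted p = 0.0434). The B-type cyclin Ccnb2 had the narrowest values, with 8.17, 8.02 and 7.83 in HSC and 9.16, 8.97 and 8.96 in MPP, and fell by 1.03 (SE 0.14, adjusted p = 0.0304).

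Kif23, a kinesin of the central spindle, read 7.40, 6.63 and 7.08 in HSC and 9.18, 9.06 and 9.41 in MPP and fell by 2.19 (SE 0.22, adjusted p = 0.0139 by limma). Kif4, a chromosome-bound kinesin, read 4.08, 6.13 and 5.50 against 7.84, 8.30 and 7.60 and fell by 2.68 (SE 0.40, adjusted p = 0.0379). Nek2, a kinase of centrosome separation, read 4.21, 4.45 and 5.03 against 8.35, 6.47 and 7.06 and fell by 2.73 (SE 0.42, adjusted p = 0.0410). The low HSC values of Kif4 in mouse 3 and Nek2 in mice 3 and 12 lay under 4.96.

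Prc1, a bundler of spindle microtubules, fell by 1.49 (SE 0.23, adjusted p = 0.0428 by limma), but not without the pairing (adjusted p = 0.0808), Ncapg2 of the other condensin complex fell by 1.17 (adjusted p = 0.0481), and Cdca3, a trigger of mitotic entry, fell by 1.10 (adjusted p = 0.0481). Mki67, the proliferation antigen, read 7.58, 8.37 and 7.95 in HSC and 8.95, 8.99 and 9.16 in MPP. Its groups did not overlap, but the difference of -1.07 (SE 0.21, adjusted p = 0.0789) passed only without the pairing (adjusted p = 0.0371).

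DNA replication genes were mostly lower in HSC by sign, and few passed. Of 58 tested, 56 lay below 0 and 41 were lower in HSC in all 3 mice, as were 2559 of all 14620 genes. Of the 58, 2 fell and 0 rose, and the median was -0.85, with -0.73, -0.58 and -0.98 in mice 3, 12 and 64. By limma 0 passed without any 1 of the WT mice or with only the WT arrays. With a repeated quantile normalization, a filter at 50% or robust variances 1 passed. Dtl, which targets the licensing factor CDT1 for destruction, read 5.69, 6.54 and 6.37 in HSC and 7.41, 8.23 and 7.64 in MPP and fell by 1.56 (SE 0.18, adjusted p = 0.0228 by limma). Uhrf1, which brings maintenance methylation to new DNA, read 8.21, 8.27 and 8.14 against 9.60, 9.27 and 9.40 and fell by 1.21 (SE 0.20, adjusted p = 0.0481). Rrm2, the ribonucleotide reductase subunit, stood at -1.53 (SE 0.30, adjusted p = 0.0788), the helicase subunit Mcm2 at -0.82 (SE 0.33, adjusted p = 0.332) and the sliding clamp Pcna at -0.44 (SE 0.13, adjusted p = 0.224). The E2F letters TTTCCCGC, TTTGGCGC or TTTCGCGC, on either strand, stood before 21.8% of the 55 starts of tested replication genes, against 2.53% of the starts of all genes tested.

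Among 38 cyclins, kinases and inhibitors of the G1 phase, Myc fell and 0 rose, and the median was -0.18. Myc, the growth-promoting transcription factor, read 7.28, 7.52 and 6.37 in HSC and 8.46, 8.96 and 8.19 in MPP, a difference of -1.48 (SE 0.24) that was the last inside the threshold (adjusted p = 0.0486 by limma). Cdk6, the G1 kinase whose level sets the exit of stem cells from rest, read 8.54, 9.55 and 8.93 against 10.48, 10.35 and 10.17, and its difference of -1.33 (SE 0.26, adjusted p = 0.0782) passed only without the pairing (adjusted p = 0.0259). The other genes nearest the threshold were Rhof at 0.92 and Laptm5 at -0.95 on the inside, and Samd12 at 1.49 and the condensin subunit Ncapd2 at -1.07 on the outside.

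Genes of growth and energy differed less than those of division. Ribosome biogenesis genes had a median of -0.31 with 57 of 66 below 0, and oxidative phosphorylation genes -0.17 with 62 of 76 below 0, and 0 of either list passed by limma. In mouse 12 the oxidative phosphorylation genes had a median of 0.007, against -0.26 and -0.34 in mice 3 and 64. Of these 76 genes, 23 lay below 0 in all 3 mice. Cytosolic ribosomal proteins had a median of 0.01 over 58 genes and genes of glycolysis and hypoxia of -0.01 over 38, also with 0 passing. The nucleolar protein Ncl stood at -0.06 (SE 0.14), the box C/D protein Fbl at -0.47 (SE 0.18) and lactate dehydrogenase Ldha at -0.03 (SE 0.41), with adjusted p of 0.886, 0.311 and 0.982.

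Signalling and stress lists without a call had medians between -0.26 and 0.09. They were type I interferon-stimulated genes (55 tested, median -0.26, with 40 below 0), fatty acid oxidation and lipid handling (32, -0.10), chromatin and DNA methylation regulators (49, -0.07), NF-kB factors (22, -0.07), glutathione and reactive oxygen defence (49, -0.02), NFAT factors and osmotic stress genes (21, 0.07), Wnt and Notch genes (35, 0.08) and p53 targets (26, 0.09). In mouse 12 the interferon-stimulated genes had a median of 0.02, against -0.21 and -0.22 in mice 3 and 64. Nfat5 itself, the osmotic stress factor deleted in the KO mice, read 8.54, 8.27 and 8.99 in WT HSC and 7.82, 8.28 and 7.98 in WT MPP. The values overlapped in mouse 12, and the difference of 0.57 (95% interval -0.08 to 1.23, adjusted p = 0.415 by limma) did not pass.

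**Figure D4:**
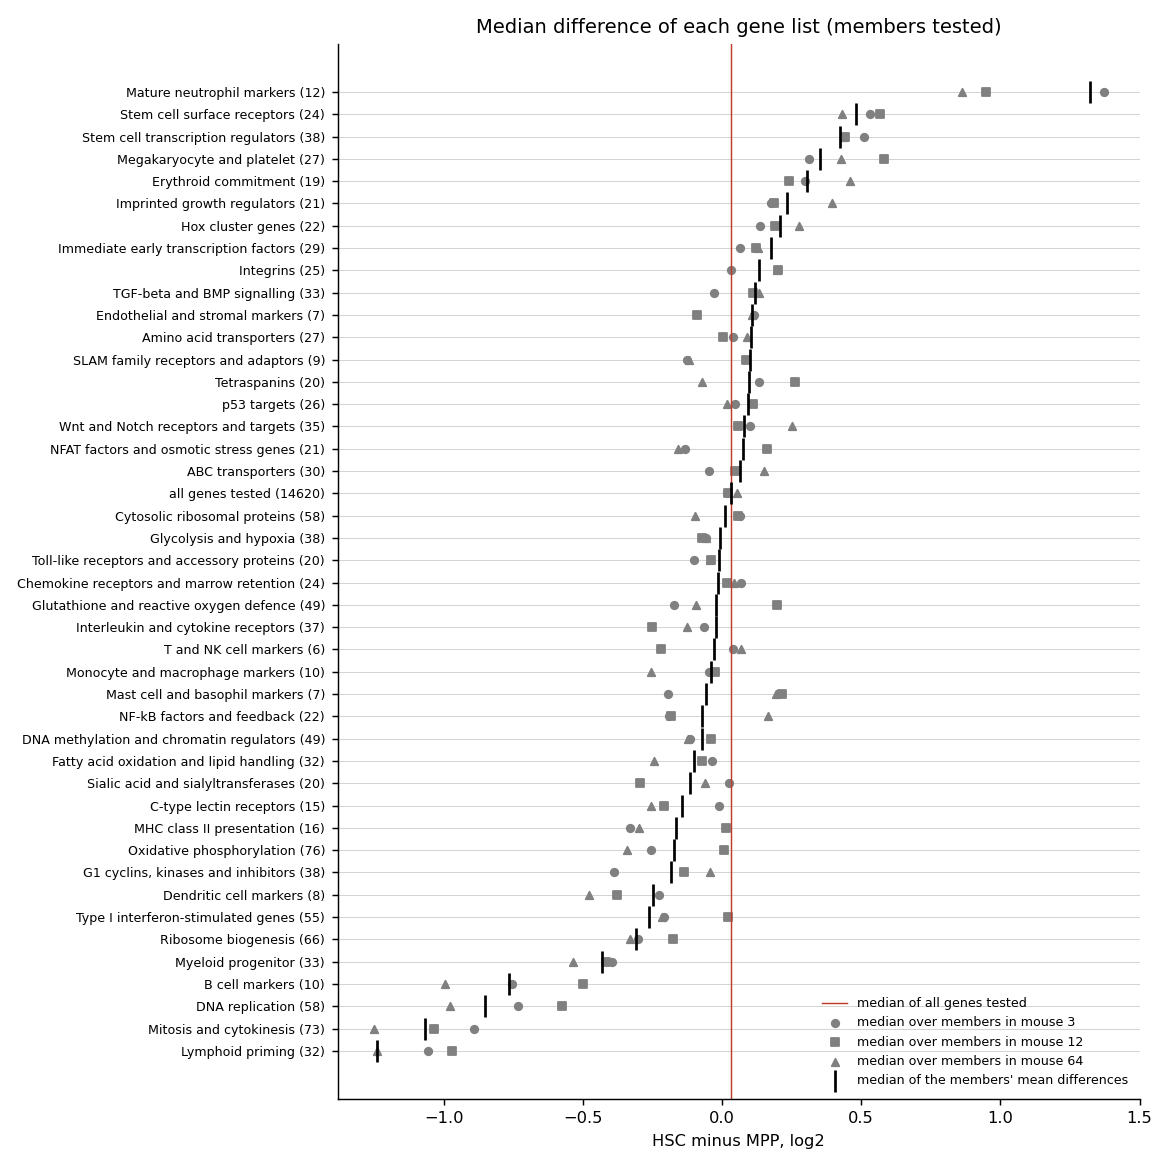
Median difference between HSC and MPP (horizontal axis, log2) for each of the 43 gene lists, with the number of members tested in brackets. Black bars give the median of the members' mean differences, grey markers the median in each WT mouse, and the red line the median of all genes; lymphoid priming lies lowest at -1.24 and mature neutrophil markers highest at 1.32, with 0 members passing in the latter.

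The KO mice gave the same contrast on 6 arrays of other animals. The values share no array with the WT contrast, but both contrasts use 1 estimate of each gene's spread, so passing in both is not independent. There 113 genes passed (0.773%), or 184 (1.26%) without the pairing. Of the 180 genes that passed in WT, 174 (96.7%) differed in the same direction in KO, against 66.6% of all genes, and 73 (40.6%) also passed the same way. The median difference of the 74 genes higher in WT HSC was 1.68 in WT and 1.25 in KO, and that of the 106 genes lower was -1.77 and -1.29. These genes were picked by their WT values, so the larger sizes in WT are a description. Dntt stood at -7.26 in KO, Flt3 at -2.90, Tlr7 at -3.58, Plxdc2 at 3.16, Tek at 2.35 and Mllt3 at 2.48.

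**Figure D5:**
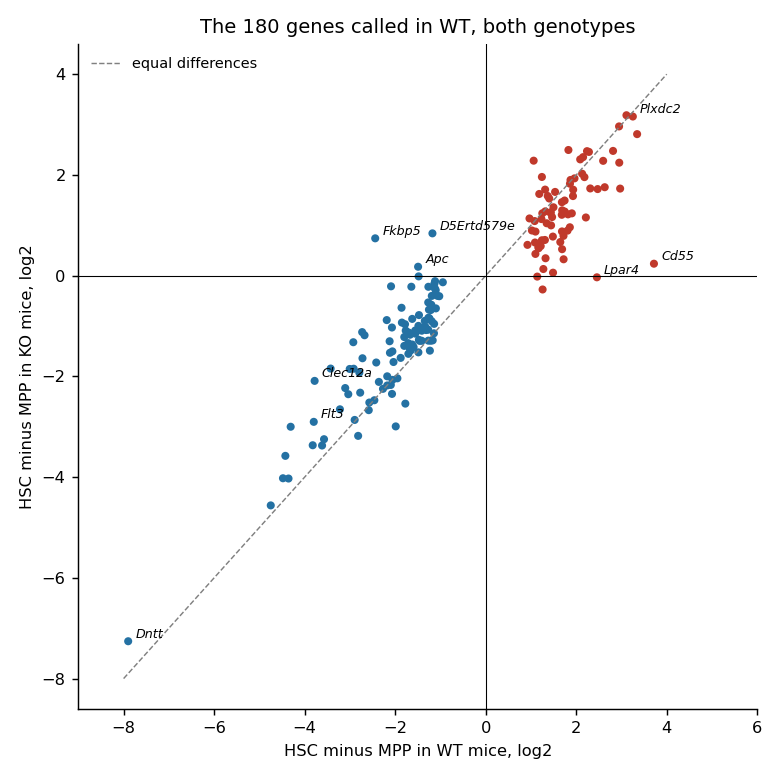
HSC minus MPP difference in KO mice (vertical axis, log2) against that in WT mice (horizontal axis, log2) for the 180 genes called in WT, with genes higher in WT HSC in red and lower in blue. The dashed line marks equal differences; Cd55 and Lpar4 lie near 0 in KO and Fkbp5 lies above 0.

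No gene passed the test of a difference between the genotypes in this contrast: limma gave 0 genes, with 749 at an unadjusted p under 0.05 (658 without the pairing, also with 0 passing) and a smallest adjusted p of 0.809. Of the 180 genes 6 had the opposite sign in KO, namely Apc, Catsper2, D5Ertd579e, Fkbp5, Lpar4 and Septin2. Fkbp5, a glucocorticoid-induced partner of HSP90, fell by 2.44 in WT (SE 0.35, adjusted p = 0.0362) and stood at 0.74 in KO. Cd55, the largest rise in WT, stood at 0.24 in KO (SE 0.35, adjusted p = 0.823), where HSC read 7.82, 8.0 and 8.29 and MPP 7.32, 8.77 and 7.31. KO arrays of both populations thus lay between the WT HSC and WT MPP arrays of mice 3 and 12, and the difference between genotypes was 3.48 (SE 0.50, adjusted p = 0.869). Myc, at -1.48 in WT, stood at -0.01 in KO, and that difference did not pass either (adjusted p = 0.893).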

How the data were processed

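Expression was measured on 1 array for each mouse and population. The deposited log2 intensities per probe set had been normalized by the authors with RMA, per the submitters' processing notes. These list limma too, and no source used here gives a version. RMA sets all arrays to 1 distribution, so a shift of all transcripts between populations would be removed, and differences of weak genes are compressed.

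Of 22142 probe sets 19527 had 1 gene symbol, 0 had several and 2615 had none. The gene identifiers of all 19527 were matched to a GRCm38.p6 table for current names. For 33 genes with several probe sets, that of the highest mean was used. Of 19494 genes the lowest 25% by mean over all 12 arrays (under 4.96) were left out, and 14620 were tested.

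The fit was limma 3.58.1 in R 4.3.3 over all 12 arrays, with the mouse as a fixed block (4 residual degrees of freedom) and moderated two-sided tests, adjusted by Benjamini-Hochberg over all genes of a contrast. KO arrays entered the WT contrast through the estimate of the spread. HSC and MPP pair because they came from the same animals. Deviations from the group means correlated with r of 0.032 to 0.091 between both arrays of a mouse. A gene was called at an adjusted p under 0.05. The scripts were tested on simulated data.

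Named are the 20 largest rises and 20 largest falls without overlap, called list members (up to 6 a list by p; further ones were added after their values were seen), anchor genes of lists, sort genes, Nfat5, genes nearest the threshold and up to 5 genes by interaction p. Members and lists were chosen with earlier results of these data known. Lists are described by counts and medians and have no test. Promoters are RefSeq's on GRCm38.p6, matched by symbol for 11788 of the genes tested. Alternatives were no pairing, only the WT arrays, other filters, averaged probe sets, a repeated quantile normalization, trended or robust variances, array weights, and each mouse left out.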

Additional observations from a re-analysis of the deposited data

Results flagged for a closer look

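In 3 of the 5 genes with the lowest interaction p, the difference between HSC and MPP had 1 sign in all 3 WT mice and the other in all 3 KO mice. The genes were picked by that p from the same values, so their signs are a description. For Bmi1, which encodes a Polycomb protein, the WT difference minus the KO difference was -2.15 (SE 0.27, adjusted p = 0.809 by limma). HSC minus MPP was -1.43, -1.23 and -0.82 in WT mice 3, 12 and 64 and 0.93, 1.33 and 0.69 in KO mice 2, 11 and 70. For D5Ertd579e it was -2.02 (SE 0.27, adjusted p = 0.809), from -1.18 in WT and 0.84 in KO. For Ikbke, which encodes the kinase IKK epsilon, it was -1.72 (SE 0.21, adjusted p = 0.809), from -0.60 in WT and 1.12 in KO. Within WT, D5Ertd579e passed with the pairing (adjusted p = 0.0472 by limma) and not without it (adjusted p = 0.252). None of these differences between genotypes passed the test over all genes. Such a pattern of signs was found for 292 genes, 2% of those tested, while 2035 genes (13.9%) differed in the same direction in all 6 mice.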

How the results depend on the processing

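All 180 genes kept their direction under each alternative in which they were tested. Most of these fits could not have reversed a direction. Each gene had the same sign in all 3 WT mice, so leaving out a mouse could not change it. Changes of the test alone left the differences as they were. Of the 180 genes, 119 passed in every setting that kept all WT mice and all KO arrays and in which they were tested. A filter at 50% tested 147 of the 180, and for the others that setting was not counted. The count of genes that passed depended on the pairing and on the arrays used. With no replicate block 302 passed, 193 of them lower in HSC, and 184 passed in KO. With only the WT arrays, and 2 residual degrees of freedom, 74 passed, 26 higher and 48 lower. With a mouse left out 2 to 161 passed (0 to 64 higher and 2 to 97 lower), with 2 to 24 in the fits without a WT mouse, and 1 to 49 in KO. Without KO mouse 11 or 70, which give no value to the WT contrast itself, 71 and 99 passed. The interaction gave 0 genes in each fit by limma. Sizes of called genes without a WT mouse were 0.74 to 1.26 times the reported ones. List medians without a WT mouse were 0.45 to 0.55 for stem cell transcription regulators, -1.13 to -1.07 for lymphoid priming, -0.83 to -0.64 for DNA replication and 1.03 to 1.35 for neutrophil markers. Counts of list members that passed fell without a WT mouse, to 1 or 2 for lymphoid priming, 0 or 1 for mitosis and 0 for surface receptors, transcription regulators, myeloid progenitor and DNA replication genes. A repeated quantile normalization gave 0.47 for stem cell transcription regulators and -0.35 for myeloid progenitor genes, which stood at -0.52 with a filter at 50%. Cdkn1c, at 0.04, ranged from -0.12 to 0.26 without a WT mouse and was below 0 without mouse 12 (-0.02) and mouse 64. The cause of these shifts was not tested. Signal over background could not be assessed without detection calls, which limits the reading of weak genes.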

Other observations

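Of the 180 genes 121 belonged to none of the lists, and the genes of this section were chosen after their values were seen. Several act in cell division or on chromatin. Gen1, a resolvase of recombination intermediates, read 5.72, 5.88 and 5.51 in HSC and 8.79, 8.39 and 8.32 in MPP and fell by 2.79 (SE 0.26, adjusted p = 0.0114 by limma). The values lay far apart in every mouse. Exo1, an exonuclease of mismatch repair, had a difference of -1.59, Ticrr, which starts replication origins, -1.64, Ercc6l, a translocase of anaphase bridges, -2.12, and Kntc1, a kinetochore protein, -1.35, all of which passed. The linker histone H1f5 fell by 1.33, and the histone genes H2bc14, H2bc11 and H2bc8, whose near-identical coding sequences their probe sets may not separate, had differences of -1.26, -1.14 and -1.13. Macroh2a1, a histone variant of repressed chromatin, fell by 2.12.

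Higher in HSC were several growth factors and regulators. Pdgfc and Pdgfd, ligands of the platelet-derived growth factor receptors, read 6.42, 6.84 and 5.35 and 7.77, 7.50 and 6.26 in HSC, against 4.33, 4.36 and 4.03 and 5.50, 5.09 and 5.15 in MPP. Mouse 64 was the lowest HSC array for both, and the rises were 1.96 (adjusted p = 0.0301 by limma) and 1.93 (adjusted p = 0.0481). Setbp1, a SET-binding protein, rose by 1.72 (SE 0.15, adjusted p = 0.00906), Plag1, a zinc finger factor, by 1.72, Dach1, a transcriptional corepressor, by 1.68 and Cited2, a CBP-binding coactivator known to maintain stem cells, by 1.65. Tbxas1, thromboxane synthase, rose by 1.44, P2rx1, an ATP-gated channel, by 1.53 and Slc18a2, which loads monoamines into granules, by 1.43. Prkaa2, a catalytic subunit of the energy sensor AMPK, rose by 1.86. Naip5 and Naip2, flagellin and rod protein sensors of the inflammasome, rose by 1.86 and 1.23, and the probe sets of such close copies may share signal.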
